A study of Mus musculus with 6 samples.

Results

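Endothelial cells line blood and lymph vessels, and 10 genes widely used to mark them were followed in bulk RNA sequencing of mouse entheseal fibroblasts: Pecam1, Cdh5, Erg, Kdr, Flt1, Tek, Tie1, Emcn, Vwf and Cldn5. They were chosen by gene symbol, and all 10 were among the 17419 genes of the deposited table. The cells came from the enthesis, where tendon joins bone, of SKG mice, a strain that carries a Zap70 mutation and is prone to autoimmune arthritis. The labels call 3 samples diseased (titles with NTS) and 3 un-diseased (titles with UN), numbered 1 to 3 in each group, and NTS and UN are not explained. Both groups share the SKG background and the label fibroblast; the age of the mice, the agent that led to disease, the way the cells were isolated and whether samples were separate animals are not given in the sources used here. The p-values below therefore reflect how much these particular samples vary, and that variation may be technical.

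Vessel lining cells are held together by the adhesion proteins PECAM-1 and VE-cadherin (Cdh5) and the tight junction protein claudin-5, and their identity is maintained in part by ETS transcription factors such as ERG. Growth of vessels is driven by VEGF through the receptors VEGFR2 (Kdr) and VEGFR1 (Flt1), the latter also acting as a trap for VEGF. Their stability is set by angiopoietins, which bind the receptor TIE2 (Tek), while TIE1 has no firmly bound ligand of its own and modulates TIE2.

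Total counts per sample lay between 16720605 and 18290870, and 3 counts, the limit that a count of 0 allows, were worth 0.147 to 0.188 CPM (counts per 1000000 of the TMM-scaled library total). Fibroblast genes were abundant, as the label has it: Col1a2, a chain of type I collagen, reached 23488 ± 4553 CPM in the diseased group and 16745 ± 4514 in the un-diseased group (SD, n = 3 per group, as in all values with ± below). Col1a2 was named after its values were seen. None of the 10 endothelial genes was at 0 in any sample. In bulk RNA, fewer cells of a type and less RNA per cell cannot be told apart.

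The endothelial genes did not move together. Erg, the ETS factor, rose 2.70-fold in diseased samples, and it was the only one of the 8 tested genes to pass; none of the others fell and 7 missed the threshold, while Emcn and Cldn5 were too low to be tested. By edgeR's quasi-likelihood test with adjustment over 13264 genes, 3.73% of all tested genes passed in either direction and 1.61% as higher. An unadjusted p under 0.05 was reached by 4 of the 8, against 27.8% of all tested genes. The 2 groups did not overlap in CPM for 4 of the 8, 3 of them higher and 1 lower in diseased samples, against 31.9% of all tested genes, 16.5% higher and 15.4% lower. The fitted log2 fold changes, diseased minus un-diseased, ran from 1.43 for Erg, 1.4 for Tie1 and 1.13 for Cdh5 down to -0.75 for Tek and -0.77 for Flt1, with a median of 0.29 against 0.02 over all tested genes. Samples that share a replicate number deviated together, least so for number 3 (correlation 0.276), so the same test was also run with the number as a block. With that replicate block Erg and Tie1 rose and Tek fell, 3 of 8, against a background of 23.9% of all tested genes in either direction, 10.5% higher and 13.3% lower. The 10 genes are plotted sample by sample.

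**Figure D1:**
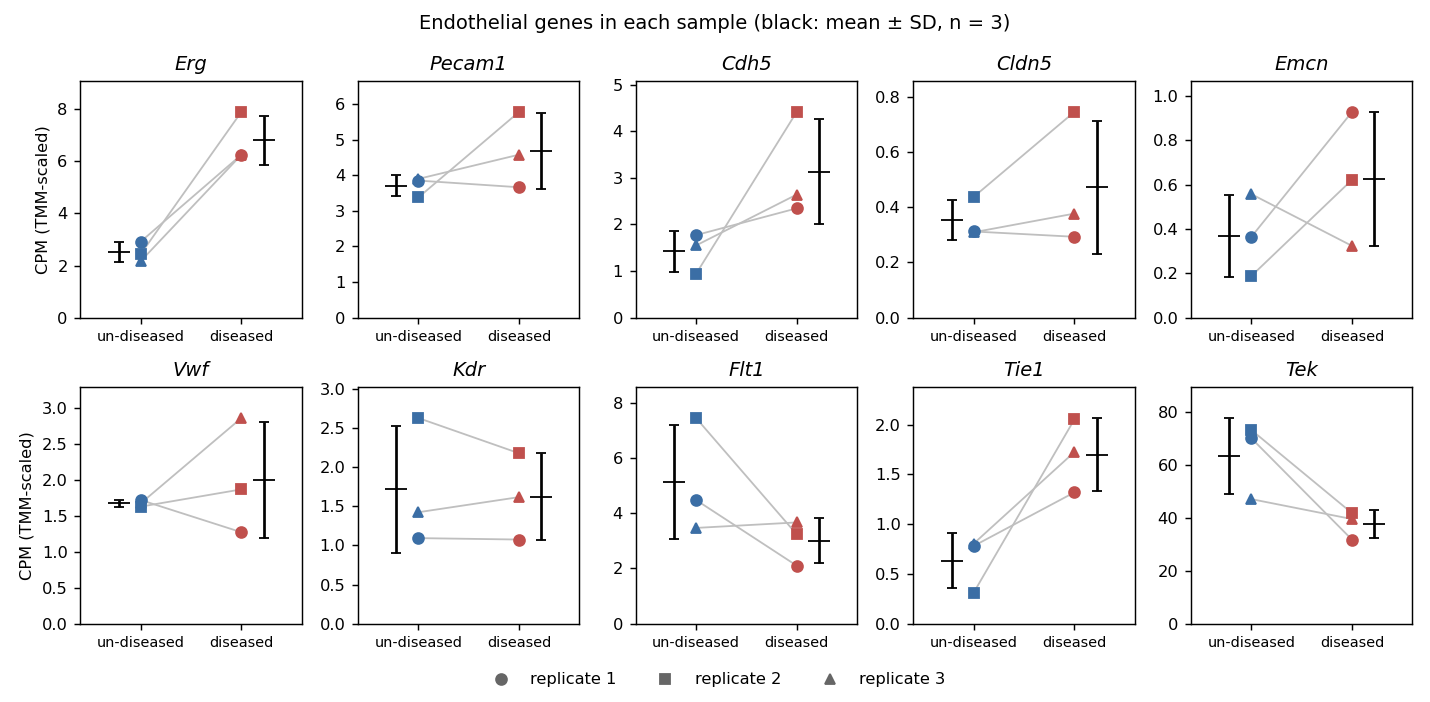
CPM of each of the 10 endothelial genes (vertical axes, from 0, scaled per gene) in un-diseased (blue) and diseased (red) samples, with grey lines joining samples of the same replicate number and black bars for mean ± SD over 3 samples. Erg, Cdh5 and Tie1 lie higher in all 3 diseased samples than in any un-diseased one, Tek lies lower in all 3, and the groups overlap for the other genes.

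Erg encodes a transcription factor of the ETS family that endothelial cells use to keep junction genes active, and it is also made in cartilage. It had 6.26, 7.90 and 6.26 CPM in diseased replicates 1, 2 and 3 and 2.92, 2.44 and 2.17 CPM in un-diseased replicates 1, 2 and 3, from counts of 128, 127 and 116 against 56, 39 and 35. The lowest diseased sample was above the highest un-diseased one, and Erg was higher in 3 of 3 pairs of the same number. The mean was 6.81 ± 0.951 CPM with disease and 2.51 ± 0.379 CPM without, and the fitted log2 fold change was 1.43 (SE 0.21, edgeR adjusted p = 0.0254). By its p-value Erg stood at place 83 among the 13264 tested genes. The replicate block gave Erg 1.43 (SE 0.20, edgeR adjusted p = 0.00344), and the authors' deposited table, whose log2 ratios divide un-diseased by diseased, lists Erg at -1.42 (q-value 1.58e-05). The size of the change hardly moved when any 1 library was left out (log2 fold change 1.31 to 1.55), but the call was lost without 5 of the 6: the edgeR adjusted p was 0.054, 0.0515 and 0.119 without diseased replicates 1, 2 and 3, and 0.0888 and 0.0703 without un-diseased replicates 2 and 3. It held without un-diseased replicate 1 (0.0302).

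The Erg gene lies on chromosome 16 from 95359169 to 95586600 (GRCm38, minus strand) and RefSeq gives it 3 start sites in the table of promoter windows, of which the counts per gene cannot say which were used. The 250 bases before each start are shown because Erg is the 1 gene of the set that passed by edgeR without the block, and because the GGAA core that ETS factors bind is found in some of these windows and not in others; GGAA and its reverse complement TTCC are in capitals, and the sequences are from RefSeq (GRCm38.p6), read 5′ to 3′ on the gene's strand. No base of the 3 windows lies in an exon of the GENCODE annotation of this build.
Erg outer start, chr16:95586594-95586843, minus strand: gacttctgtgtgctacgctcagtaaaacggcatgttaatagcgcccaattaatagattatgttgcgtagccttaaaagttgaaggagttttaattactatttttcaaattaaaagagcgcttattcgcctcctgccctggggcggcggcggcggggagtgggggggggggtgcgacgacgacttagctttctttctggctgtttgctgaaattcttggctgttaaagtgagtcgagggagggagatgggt
Erg middle start, chr16:95530366-95530615, minus strand: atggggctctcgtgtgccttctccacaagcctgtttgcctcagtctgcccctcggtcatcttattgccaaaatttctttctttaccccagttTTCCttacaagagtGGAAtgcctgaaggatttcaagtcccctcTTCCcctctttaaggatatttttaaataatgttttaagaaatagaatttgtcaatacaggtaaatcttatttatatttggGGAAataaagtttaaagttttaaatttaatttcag
Erg inner start, chr16:95459349-95459598, minus strand: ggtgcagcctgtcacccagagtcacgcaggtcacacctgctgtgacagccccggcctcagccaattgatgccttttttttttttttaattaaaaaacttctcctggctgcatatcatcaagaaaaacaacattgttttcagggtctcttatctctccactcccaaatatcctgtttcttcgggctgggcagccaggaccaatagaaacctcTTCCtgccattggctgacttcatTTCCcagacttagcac
The outer window held 0 matches to GGAA on either strand, the middle one 4 and the inner one 2. Of 32851 windows of this length before RefSeq starts, 93.4% held at least 1 GGAA on either strand, with a median of 3, so its presence is common. The longer word AGGAAG (or CTTCCT), which contains the core, was in 29.5% of all windows and, among the Erg windows, only in the inner one, once. RefSeq windows matched 7 of the 10 genes, with Pecam1, Cdh5 and Vwf unmatched. A match is a run of letters, not a binding site.

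Among the junction genes, Cdh5, the cadherin of endothelial adherens junctions, differed most between the groups. Cdh5 (chromosome 8, 104101613 to 104144504) had 2.35, 4.42 and 2.64 CPM in diseased replicates 1, 2 and 3 and 1.77, 0.939 and 1.55 in un-diseased ones. The groups did not overlap, but the nearest samples, diseased replicate 1 and un-diseased replicate 1, differed by only 1.33-fold, while pair 2 differed by 4.71-fold. Its log2 fold change was 1.13 (SE 0.36, unadjusted p = 0.0149, edgeR adjusted p = 0.111), which did not pass, and with the replicate block the adjusted p was 0.0596. The fold change was 0.80 when diseased replicate 2 was left out and 0.90 when un-diseased replicate 2 was, again on the log2 scale.

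Pecam1 encodes CD31, an adhesion molecule of endothelial cells that platelets and several white blood cells also carry. It had 3.67, 5.79 and 4.58 CPM in diseased and 3.85, 3.38 and 3.90 in un-diseased replicates 1, 2 and 3. The groups overlapped, since diseased replicate 1 was below 2 of the un-diseased samples. Its log2 fold change was 0.33 (SE 0.23, edgeR adjusted p = 0.363). Cldn5, which encodes a claudin that seals tight junctions, had counts of 6, 12 and 7 in diseased and 6, 7 and 5 in un-diseased replicates, too few to be tested. A count of 5 has an exact 95% Poisson interval of 1.62 to 11.7 (counting error only), so counts of this size cannot separate the groups.

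The surface sialomucin gene Emcn and the clotting factor gene Vwf, both typical of vessel walls, showed no separation. Emcn had counts of 19, 10 and 6 in diseased and 7, 3 and 9 in un-diseased replicates 1, 2 and 3, and it was not tested. Vwf stood at 1.27, 1.87 and 2.86 CPM in diseased replicates 1, 2 and 3 and at 1.72, 1.63 and 1.67 CPM in their un-diseased counterparts. The un-diseased samples lay within 1.06-fold of each other, and the diseased ones spread 2.25-fold around them. The log2 fold change of Vwf was 0.25 (SE 0.34, edgeR adjusted p = 0.642), and it was -0.10 without diseased replicate 3.

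The angiopoietin receptor genes Tek and Tie1 lay on opposite sides of 0. Tie1 (chromosome 4, 118471191 to 118489849) had 1.32, 2.05 and 1.73 CPM in diseased replicates 1, 2 and 3 and 0.781, 0.313 and 0.805 in un-diseased ones, from counts of 27, 33 and 32 against 15, 5 and 13. The groups did not overlap, and pair 2, with the sample of 5 counts, had the largest difference, 6.56-fold against 1.69-fold in pair 1 and 2.14-fold in pair 3. The log2 fold change of Tie1 was 1.4 (SE 0.40, unadjusted p = 0.00906, edgeR adjusted p = 0.0916), which did not pass. With the replicate block it was 1.39 (SE 0.41, edgeR adjusted p = 0.043), which passed, but with 1 pair left out the blocked adjusted p was 0.0519, 0.172 and 0.132 without pairs 1, 2 and 3.

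Tek, the gene of the receptor TIE2 (chromosome 4, 94739086 to 94874976), had 31.8, 41.8 and 39.6 CPM in diseased replicates 1, 2 and 3 and 70.2, 73.3 and 47.1 in un-diseased ones. All 3 diseased samples were below all 3 un-diseased ones; un-diseased replicate 3 lay closest to the diseased group, so that pair 3 differed by 1.19-fold, against 2.21-fold and 1.75-fold in pairs 1 and 2. The log2 fold change was -0.75 (SE 0.19, unadjusted p = 0.00439, edgeR adjusted p = 0.0684), which did not pass. It passed with the replicate block, at -0.74 (SE 0.16, edgeR adjusted p = 0.0147), and blocked it also passed without any 1 pair, with adjusted p of 0.0443, 0.023 and 0.0227. DESeq2 without a block gave Tek an adjusted p of 0.00807, where 11.4% of all genes passed and Erg and Tek were the 2 of the set that did, and the authors' deposited table, dividing un-diseased by diseased, lists Tek at a log2 ratio of 0.76 (q-value 0.0103).

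The number of Tek reads per Tie1 read shows the divergence within each sample, free of library scaling. In diseased replicates 1, 2 and 3 it was 24.1, 20.4 and 22.9, and in un-diseased ones it was 89.8, 234 and 58.5. The ratio was thus nearly the same in the diseased samples and lower in each of them than in any un-diseased sample. Between the geometric means it differed by 4.78-fold. The value of 234 in un-diseased replicate 2 rested on 5 Tie1 counts, with an exact 95% Poisson interval of 1.62 to 11.7 (counting error only). The size of the difference and the wide spread of the un-diseased ratios depend on it. An exact two-sided permutation test over the 3 against 3 samples gave p = 0.1, the smallest it can give, and 0.15 after adjustment over 3 such ratios, which were chosen with the values known. For Tek and Tie1 this outcome was fixed beforehand, since every diseased sample was below every un-diseased one for Tek and above for Tie1. That p therefore adds nothing to the values of Tek and Tie1 given above. For Flt1 reads per Kdr read the ratio was 1.95, 1.49 and 2.27 in diseased and 4.10, 2.83 and 2.43 in un-diseased replicates. These also did not overlap (exact permutation p = 0.1, adjusted 0.15), and that p says no more than this. The nearest ratios, 2.27 and 2.43, rested on 30 and 23 Kdr counts in the samples numbered 3. How often other pairs of genes have ratios without overlap was not tested. The third ratio, Erg reads per Cdh5 read, overlapped between groups, with 2.67, 1.79 and 2.37 against 1.65, 2.60 and 1.4 (exact permutation p = 0.4, adjusted 0.4).

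The VEGF receptor genes did not pass. Flt1, which encodes VEGFR1, had 2.10, 3.24 and 3.67 CPM in diseased replicates 1, 2 and 3 and 4.48, 7.45 and 3.47 in un-diseased ones, so that un-diseased replicate 3 lay among the diseased samples. Pairs 1 and 2 were 2.13-fold and 2.30-fold lower in the diseased sample, and pair 3 was 1.06-fold higher. The log2 fold change was -0.77 (SE 0.34, edgeR adjusted p = 0.193), and with the replicate block the adjusted p was 0.0837. Kdr, which encodes VEGFR2, the main signalling receptor for VEGF on endothelium, had 1.08, 2.18 and 1.62 CPM in diseased replicates 1, 2 and 3 and 1.09, 2.63 and 1.42 in un-diseased ones. These values overlapped throughout, the 2 samples numbered 2 being the highest of each group, and the log2 fold change was -0.08 (SE 0.42, edgeR adjusted p = 0.912), with a sign that turned in 4 of the 17 alternatives run, among them upper-quartile scaling and leaving out un-diseased replicate 2.

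**Figure D2:**
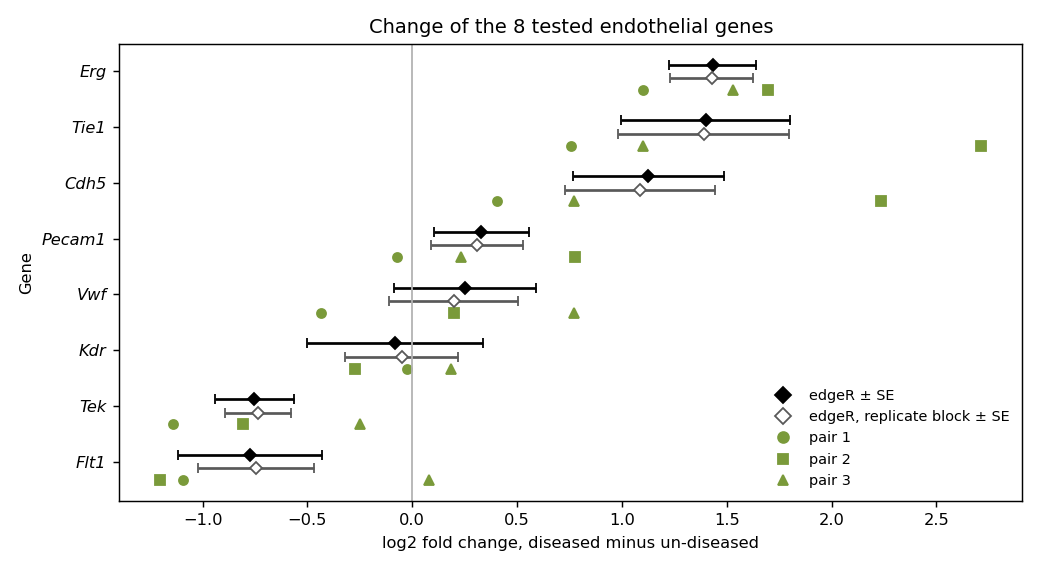
Log2 fold change, diseased minus un-diseased, of the 8 tested endothelial genes (horizontal axis) from edgeR without a block (filled diamonds) and with the replicate block (open diamonds), bars giving SE, and the log2 ratio of each same-numbered pair (green). Erg, Tie1 and Cdh5 are positive and Tek negative in all 3 pairs, with pair 2 the widest for Tie1 and Cdh5 and pair 3 the nearest to 0 for Tek and Flt1.

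The largest and smallest values of the set gathered in a few samples. Diseased replicate 2 was the highest of the 6 samples for 5 of the 10 genes, among them Erg, Cdh5 and Tie1, and un-diseased replicate 2 was the highest for 3, namely Kdr, Flt1 and Tek. Un-diseased replicate 2 was also the lowest for 4 genes, Pecam1, Cdh5, Tie1 and Emcn, and diseased replicate 1 the lowest for 5. The 10 genes summed to 51.0, 70.6 and 63.6 CPM in the 3 diseased samples and to 87.5, 92.7 and 63.0 CPM in the un-diseased ones, and Tek alone supplied 59.2% to 62.3% of the reads in diseased and 74.8% to 80.2% in un-diseased samples. Without Tek the sum was 19.3, 28.8 and 24.1 CPM with disease and 17.3, 19.4 and 15.9 CPM without, so the total without Tek overlapped only through diseased replicate 1.

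Per length of the longest coding transcript, Tek was far above the rest. Its level was 8.11 ± 1.13 CPM per kb in diseased and 13.7 ± 3.07 in un-diseased samples. Next in un-diseased samples came Pecam1 with 1.08 ± 0.0840, Erg with 0.772 ± 0.117, Flt1 with 0.744 ± 0.300 and Cdh5 with 0.355 ± 0.108 CPM per kb, and Kdr, Cldn5, Vwf, Tie1 and Emcn followed, from 0.290 down to 0.143. In diseased samples Erg, with 2.10 ± 0.293 CPM per kb, was above Pecam1 with 1.36 ± 0.309 and Cdh5 with 0.785 ± 0.281, and the rest lay between 0.435 for Flt1 and 0.226 for Vwf. Tek was 12.7 times the next gene in un-diseased and 3.87 times in diseased samples. Among un-diseased samples 4 of the 9 neighbouring steps in this order were wider than the spread of the samples. They were Tek over Pecam1, Pecam1 over Erg, Flt1 over Cdh5 and Cldn5 over Vwf. Among diseased samples 3 of 9 were (Tek over Erg, Erg over Pecam1 and Cdh5 over Flt1). The other neighbours overlapped. Cldn5 over Vwf was narrow, the lowest Cldn5 value being 0.219 and the highest Vwf value 0.195 CPM per kb. It rested on Cldn5 counts of 6, 7 and 5, too few to place the 2 genes in order. With the union of all annotated exons as length, Tek remained first and was 18.6 times the next gene in un-diseased samples, which was then Erg. The step of Pecam1 over Erg turned, with 0.596 CPM per kb for Pecam1 and 0.724 for Erg in un-diseased samples. Erg was thus above Pecam1 in both groups by that length (1.96 against 0.751 in diseased samples). Flt1 moved from place 5 to place 7 in diseased samples.

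**Figure D3:**
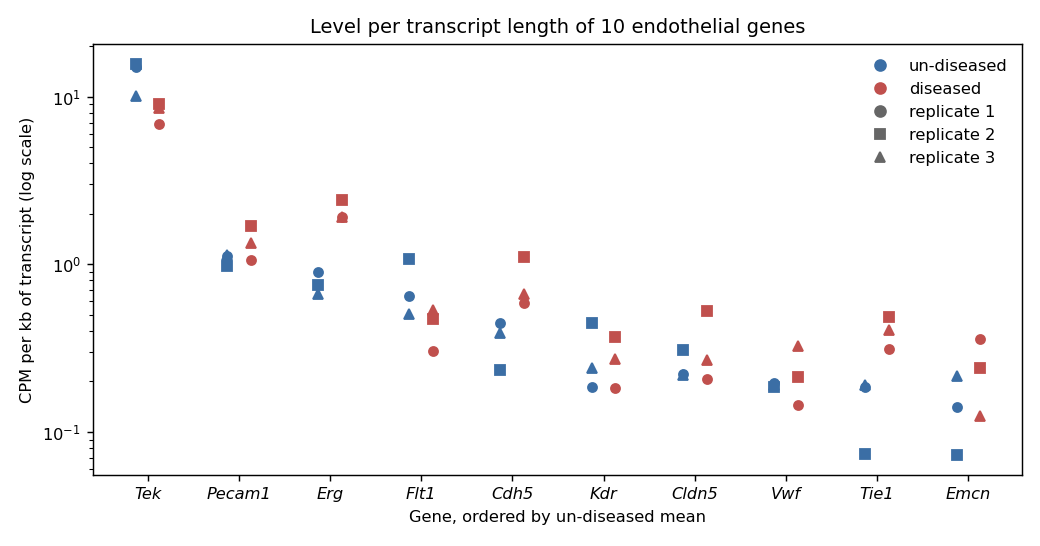
Level of each endothelial gene per kb of its longest coding transcript (vertical log axis, CPM per kb) in the 3 un-diseased (blue) and 3 diseased (red) samples, with genes ordered by their un-diseased mean. Tek lies between 6.83 and 15.75 in all 6 samples, and the highest value of any other gene is 2.43, for Erg.

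The ligands and co-receptors of these receptors were also measured. All 10 such genes were tested; 0 rose, 1 fell and 9 missed the threshold, and their median change was -0.19 (log2) against 0.02 over all tested genes. The gene that fell was Angpt2, whose product can oppose angiopoietin-1 at TIE2. Angpt2 had 3.08, 2.74 and 2.43 CPM in diseased replicates 1, 2 and 3 and 7.81, 6.88 and 5.26 in un-diseased ones, with every diseased sample below every un-diseased one. Its log2 fold change was -1.27 (SE 0.22, edgeR adjusted p = 0.0305). As for Erg, the call was lost without 5 of the 6 libraries: the edgeR adjusted p for Angpt2 was 0.0608, 0.0566 and 0.148 without diseased replicates 1, 2 and 3, and 0.101 and 0.0651 without un-diseased replicates 2 and 3, with log2 fold changes between -1.42 and -1.14. With the replicate block 1 gene of the 10 rose and 2 fell, where 10.5% of all tested genes passed as higher and 13.3% as lower, so the share is near that of all genes. The riser was Angpt1, the activating ligand of TIE2, named after its values were seen. It had 64.9, 93.0 and 89.3 CPM in diseased and 42.5, 49.7 and 66.6 in un-diseased replicates. Each pair had the higher Angpt1 value in its diseased sample, while the groups overlapped through diseased replicate 1 and un-diseased replicate 3; the log2 fold change was 0.64 (SE 0.20, edgeR adjusted p = 0.109 without and 0.00693 with the replicate block). Vegfa, the main VEGF, likewise named after its values were seen, also fell, under the block only. It had 90.7, 194 and 135 CPM in diseased and 126, 259 and 216 in un-diseased replicates and a log2 fold change of -0.52 (SE 0.33, edgeR adjusted p = 0.329 without and 0.0101 with the replicate block).

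A further list held 32 genes of endothelium that are not among the 10. Of these 23 were tested, 0 rose and 0 fell by edgeR (11 at an unadjusted p under 0.05, and 3 calls by DESeq2). Over all tested genes 27.8% had an unadjusted p under 0.05 and 11.4% were called by DESeq2. The fitted change was positive for 17 of the 23 and its median was 0.35 (log2), against 0.02 over all tested genes. Under the replicate block 5 rose and 3 fell, to be read against the 23.9% of all genes that passed there. The risers, named after their values were seen, were Cyyr1 (blocked log2 fold change 1.24, SE 0.19), Egfl7, a secreted protein of growing vessels (1.18, SE 0.36), the sphingosine phosphate receptor gene S1pr1 (1.14, SE 0.16), Cd93 (0.86, SE 0.17) and the TGF-beta co-receptor gene Eng (0.43, SE 0.10), with edgeR blocked adjusted p between 0.00389 and 0.0488. Of these genes Eng had 56.2, 58.9 and 61.0 CPM in diseased and 43.8, 38.8 and 48.0 in un-diseased replicates, with no overlap. Those that fell were the adhesion receptor gene Sele (-1.74, SE 0.21), the ETS factor gene Ets1 (-1.32, SE 0.16) and Cd34 (-0.52, SE 0.12), likewise named after their values were seen; none of the 8 passed without the block. Cd34, a sialomucin of vessels and of many fibroblasts, stood at 689.6 ± 11.5 CPM with disease and 990 ± 68.6 CPM without (edgeR adjusted p = 0.0639 without and 0.0208 with the replicate block).

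**Figure D4:**
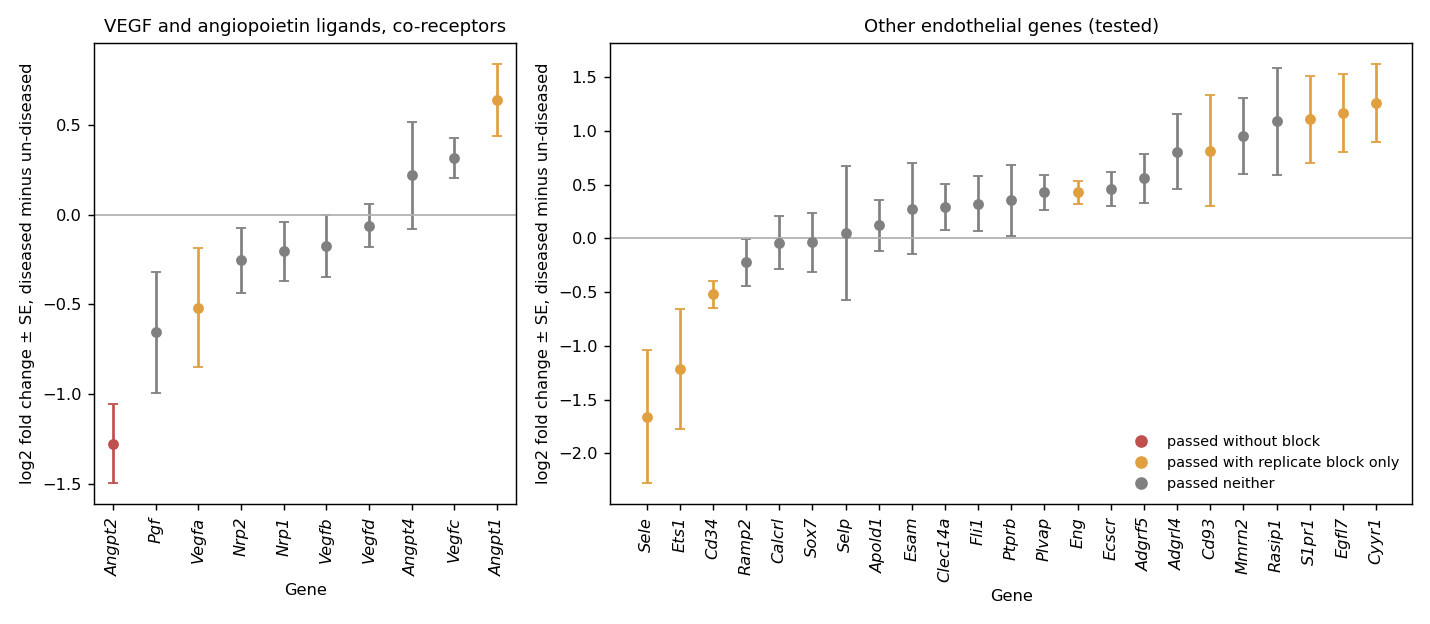
Log2 fold change ± SE, diseased minus un-diseased, from edgeR without a block for the 10 VEGF and angiopoietin ligands and co-receptors (left) and the 23 tested further endothelial genes (right); colour shows which passed without the block (red), only with the replicate block (orange) or neither (grey). Angpt2 is the 1 red point, and the orange points lie on both sides of 0 in each panel.

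Markers of other cells that share some of these genes were measured beside them. All 20 macrophage markers were tested, 19 had a positive fold change and the median was 1.26 on the log2 scale. By edgeR 0 passed (8 at an unadjusted p under 0.05, and 4 calls by DESeq2), and 19 rose with the replicate block, where 10.5% of all tested genes did. Over all tested genes 27.8% had an unadjusted p under 0.05 and 11.4% were called by DESeq2, shares that apply to each list below. Leaving out un-diseased replicate 2 took that median to 2.20, and leaving out un-diseased replicate 3 took it to 0.86. Their summed level was 227 to 602 CPM in diseased and 50.0 to 299 CPM in un-diseased samples, none was at 0 in all samples, and Lyz2, lysozyme, had 144 ± 53.0 against 43.8 ± 37.1 CPM. Platelet markers, 5 of 10 tested, had a median log2 fold change of -0.20 and 0 passed by edgeR with or without the block (1 at an unadjusted p under 0.05, and 0 calls by DESeq2); their sum was 64.5 to 78.1 CPM with disease and 80.4 to 94.4 CPM without, most of it from Itgb3, an integrin subunit that other cells also make. Neutrophil marker sums overlapped, at 36.7 to 181 CPM with disease and 8.30 to 223 CPM without. Of 9 tested neutrophil genes 0 passed by edgeR (0 at an unadjusted p under 0.05, and 0 calls by DESeq2). With the replicate block 3 rose and 0 fell, where 10.5% of all tested genes passed as higher. The risers were Csf3r, Cxcr2 and S100a9, named after their values were seen (edgeR blocked adjusted p = 0.00279, 0.0161 and 0.0449). Without the block 6 of the 9 had a positive fold change and the median was 0.26 (log2). Camp, Ltf and Ngp, likewise named after their values were seen, were negative (-0.78, -0.45 and -0.86). Of 12 fibroblast and tendon genes 1 rose, Thbs4, a tendon matrix protein, at a log2 fold change of 1.16 (SE 0.21, edgeR adjusted p = 0.0357), a call lost without 5 of the 6 libraries (edgeR adjusted p from 0.0562 to 0.133) and kept only when un-diseased replicate 1 was left out (0.048). In that list 4 genes rose and 0 fell with the replicate block, where 10.5% of all tested genes passed as higher and 13.3% as lower. DESeq2 called 5 higher and 1 lower, Dcn, which was named after its values were seen. Over all tested genes DESeq2 called 11.4% in either direction. The sum of the list was 50167 to 71309.5 CPM in diseased against 39901 to 55929 in un-diseased samples. Of 8 chondrocyte genes 0 passed by edgeR with or without the block (0 at an unadjusted p under 0.05, and 0 calls by DESeq2), 7 had a positive fold change and the median was 0.65; Comp, the highest, stood at 2588 ± 373 CPM with disease and 2894 ± 174 CPM without. The part of macrophage, tendon or cartilage RNA in the endothelial values was not tested.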

How the data were processed

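Bulk RNA sequencing of 6 samples was analysed, 3 diseased and 3 un-diseased by the treatment label. The deposited table gave estimated counts per gene, of which 9.6% were not whole, together with the authors' log2 ratio, p-value and q-value per gene. Per the submitters' processing notes, the tools were DESeq2 1.4.5, RSEM 1.3.1 and HISAT2 2.0.4 and the build GRCm38, with no role or order stated. Estimated counts were rounded. Genes were kept by filterByExpr (least count 10), which left 13264, and libraries were scaled by TMM. Groups were compared by the quasi-likelihood test of edgeR 4.0.16 (R 4.3.3) with Benjamini-Hochberg adjustment over all tested genes and a threshold of 0.05. CPM are counts per 1000000 of the scaled library total.

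Deviations from the group mean correlated at 0.487, 0.578 and 0.276 between samples numbered 1, 2 and 3. Between samples of different numbers they correlated at -0.531 to 0.137, the highest being diseased replicate 3 with un-diseased replicate 1. The numbers, which come from the titles, were therefore taken to pair the samples, and the replicate block was run as an alternative. The labels do not state such a pairing, and it was read from the same data that the block then tests. Deviations within a group of 3 sum to 0, so the negative correlations follow in part from the positive ones and are not separate support. The other alternatives were different scalings and filters, DESeq2 1.42.0, limma-voom (limma 3.58.1), a threshold of 0.01 and leaving out samples or pairs. The rule for named genes took all 10 endothelial genes and, from each of 12 other lists with 148 entries (143 in the table), up to 3 genes that passed, or the gene with the highest mean CPM; others are marked as chosen after their values were seen. The endothelial genes and the lists were chosen with earlier results of these data known. Gene positions are RefSeq's and 1-based; transcript lengths are from GENCODE, both on GRCm38.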

Additional observations from a re-analysis of the deposited data

How the results depend on the processing

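Of 136 values for the 8 tested genes under 17 alternatives, 117 kept their direction and their side of the threshold, 6 reversed, 7 newly passed and 6 no longer passed. Kdr turned to 0.00 (0.0014) under upper-quartile scaling and to 0.083 with the replicate block without pair 2, and ranged from -0.34 to 0.35 leaving out 1 sample; Vwf ranged from -0.10 to 0.50 and was -0.12 with the block without pair 3. Erg (1.43) did not pass at a threshold of 0.01 and ranged from 1.31 to 1.55 leaving out 1 sample. Tek passed with DESeq2 (-0.77), with the replicate block (-0.74) and with the block without pair 1 (-0.55), 2 (-0.70) or 3 (-0.98), Tie1 with the block (1.39) and Flt1 with the block without pair 3 (-1.15). Of the 10 genes, 1 was called higher and 0 lower; 2 and 1 with the block, 1 and 1 with DESeq2, 0 and 0 at 0.01, 0 to 1 higher without 1 sample, and 1 lower with the block without pair 1 or 2 and 2 without pair 3.

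Over all genes 213 were higher and 282 lower. The counts were 417 and 288 with upper-quartile scaling, 635 and 882 with DESeq2, 2 and 2 at 0.01, 1397 and 1770 with the replicate block, 1013 and 1556, 809 and 1274, and 426 and 583 with the block without pairs 1, 2 and 3, and 2 to 354 and 3 to 721 without 1 sample. Over the 12 other lists together 1 gene was higher and 1 lower; 3 were higher with upper-quartile scaling, 2 lower with no filter, 14 and 4 with DESeq2, 0 and 0 at 0.01, 34 and 7 with the block, 31 and 7, 34 and 6, and 21 and 5 with the block without pairs 1, 2 and 3, and 0 to 4 and 0 to 2 without 1 sample. The cause of these changes was not tested. The block retained each of the 495 calls made without it, with the same sign. With exon-union lengths, an alternative chosen after seeing the data, Tek's lead per kb in un-diseased samples went from 12.7 to 18.6 times. The next gene was Pecam1 by the longest coding transcript and Erg by the exon union. With 3 to 12 counts in most samples, depth limits Emcn and Cldn5, which stayed untested except without a filter, where they had log2 fold changes of 0.76 (SE 0.56) and 0.39 (SE 0.52).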

Other observations

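Genes of other vessel cells and vessel types are given beside the shares of all tested genes that passed, 3.73% by edgeR without the block and 23.9% with it. DESeq2 called 11.4% of all tested genes, and 27.8% had an unadjusted p under 0.05 by edgeR. Of 7 lymphatic endothelial genes, all tested, 0 passed by edgeR with or without the replicate block (1 at an unadjusted p under 0.05, and 0 by DESeq2), and their median log2 fold change was 0.06. The gene with that unadjusted p was Flt4, the VEGF-C receptor, named after its values were seen, with 2.40, 2.80 and 2.64 CPM in diseased and 1.25, 0.313 and 1.73 in un-diseased replicates 1, 2 and 3, and a log2 fold change of 1.24 (SE 0.49, edgeR adjusted p = 0.158). Pdpn, the most abundant of the list and also a fibroblast gene, stood at 284 ± 83.5 CPM with disease and 346 ± 115 CPM without.

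Of 10 tested mural cell genes, which mark pericytes and vascular smooth muscle, 0 passed by edgeR (2 at an unadjusted p under 0.05, and 2 by DESeq2); 1 rose and 1 fell with the replicate block. Pdgfrb, a receptor that fibroblasts also carry, stood at 217 ± 21.3 CPM with disease and 163 ± 17.2 CPM without (log2 fold change 0.41, SE 0.13, edgeR adjusted p = 0.11 without and 0.0344 with the replicate block). The gene that fell was the potassium channel subunit gene Abcc9, named after its values were seen, with 32.0 ± 8.86 against 62.3 ± 15.8 CPM (log2 fold change -0.96, SE 0.24, edgeR adjusted p = 0.0691 without and 0.00139 with the replicate block). Of 9 tested arterial and venous genes 0 passed by edgeR (1 at an unadjusted p under 0.05, and 1 by DESeq2); with the replicate block Unc5b, a netrin receptor gene named after its values were seen, rose (log2 fold change 0.75, SE 0.12, edgeR adjusted p = 0.00551), and Jag1, a Notch ligand gene and the highest of the list, had 91.4 ± 29.0 against 104 ± 32.5 CPM.

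Blood cell RNA was low for the red cell and lymphocyte genes measured. Of 5 red cell genes listed, 3 were among the deposited genes and 0 could be tested. Hba-a1, a haemoglobin chain gene, stood at 0.278 ± 0.0840 CPM with disease and 0.176 ± 0.0637 CPM without, and Cd3e, a T cell receptor component gene, 0.896 ± 0.610 against 2.08 ± 1.02. S100a9, a neutrophil gene, had 36.6 ± 25.0 against 23.8 ± 31.5 CPM, and Itgb3 53.6 ± 7.62 against 69.5 ± 5.65. None of these 4 passed by edgeR without the block (adjusted p = 0.263 for Cd3e, 0.706 for S100a9 and 0.121 for Itgb3; Hba-a1 was too low to be tested). With the replicate block Cd3e fell and S100a9 rose (edgeR adjusted p = 0.028 and 0.0449). The lymphocyte genes did not share the direction of Cd3e. Cd3d and Cd3g, named after their values were seen, had positive blocked log2 fold changes (0.21 and 0.58) and did not pass. Without the block the median of the 3 tested lymphocyte genes was 0.19 (log2).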
